A study of Mus musculus with 8 samples.

Results

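The 6 genes described here act in interleukin-1 (IL-1) signalling: *Casp1*, *Il1a*, *Il1r1*, *Irak3*, *Map3k7* and *Ube2n*. The name chain is used below, though not all of the 6 are neighbouring steps. They were chosen by their measured values, since each was higher in anti-VEGF-treated than in control HM-1 tumours, so their difference between the groups is given as a description with no test. All 6 were found among 11667 genes, each with 1 probe set. The microarray compared 4 tumours of B6C3F1 mice given anti-VEGF antibody with 4 tumours of mice of the same cross that received rat IgG, each tumour on an array of its own. All mice had received HM-1 cells, a mouse ovarian cancer line, under the skin of the flank, so the tumours of both groups stem from a single line growing outside the ovary. Injections into the peritoneum began 3 days after the cells per the labels and went on until the mice were killed, whereas the methods give a start a day later and a set length of treatment. Per the labels tumours were taken at a long diameter of 1.5 cm, and the age of the mice was not given in the sources used here. Expression is given as deposited, on a log2 scale after the authors' robust multi-array averaging (RMA), and each difference below is anti-VEGF minus control on that log2 scale.

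IL-1 is an alarm cytokine of inflammation. IL-1α is held in cells as a precursor and is set free when they are damaged, whereas IL-1β and IL-18 are cut to their active form by caspase-1 once an inflammasome, a sensor complex in the cytoplasm, has formed. At the cell surface IL-1 binds the receptor IL-1R1, which assembles MyD88 and IRAK kinases. The ubiquitin-conjugating enzyme UBC13, encoded by *Ube2n*, then helps to build the ubiquitin chains on which the kinase TAK1, encoded by *Map3k7*, is activated, and TAK1 turns on NF-κB and the MAP kinases. IRAK-M, encoded by *Irak3*, is a brake on this step in myeloid cells. In tumours IL-1 is known for recruiting myeloid cells and for promoting vessel growth.

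The arrays of the groups differed as a whole, and this touches each value below. The standard deviation over genes was 1.99 to 2.08 on the anti-VEGF arrays and 1.12 to 1.66 on the control arrays, lowest on control 3. The median difference over all genes was -0.44, and it changed with brightness: among 3889 genes each it was -1.07 for the dimmest, -0.44 for the intermediate and 0.60 for the brightest. Each member is therefore set beside the 200 genes nearest to it in mean level, and beside its value after the arrays were quantile-normalised again, which gives all arrays 1 distribution and left a median difference of -0.03 over all genes. Of the epithelial markers of HM-1 cells, the keratin genes *Krt8* and *Krt18* had a mean of 11.10 and 11.08 in anti-VEGF tumours and 10.24 and 10.43 in control tumours, mesothelin (*Msln*) had 8.60 in anti-VEGF and 7.20 in control tumours, and *Epcam* had 3.82 in anti-VEGF and 4.31 in control tumours. Of 6 such markers measured, 4 were higher at a limma adjusted p under 0.05 and none lower, where 19.1% of all genes were higher. *Epcam* and *Cdh1* (difference -0.55) did not pass. After quantile normalisation *Epcam* had 0.29, *Cdh1* -0.50, *Krt19* 0.06 and *Msln* 0.48. *Cdh1* and *Krt19* were named after their values were seen. RMA as usually run gives the arrays nearly the same distribution, which these do not share, and whether the deposited values were transformed again is not stated in the sources used here. The size of a deposited difference or fold, those of the members included, therefore depends on a scale that is not fully known.

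*Casp1*, which encodes the inflammasome protease, had the widest difference of the 6 on the deposited scale. Its log2 expression was 7.80, 8.11, 8.47 and 8.57 on anti-VEGF arrays 1 to 4, and 5.70, 6.41, 5.07 and 6.68 on control arrays 1 to 4. The lowest anti-VEGF tumour was 1.12 above the highest control tumour. The mean was 8.24 ± 0.35 with anti-VEGF antibody and 5.97 ± 0.73 in controls (SD, n = 4 each), a difference of 2.27 or 4.83-fold. Its 200 neighbours in level had a median difference of 0.87 with quartiles of 0.54 and 1.22, and 1 of the 200 had a larger difference than *Casp1*. After quantile normalisation the difference was 1.81, the groups still did not overlap, and again 1 of 200 genes of its level had a larger one. Within its array *Casp1* stood at percentile 92.0 to 95.3 of all genes in anti-VEGF tumours and 55.3 to 84.7 in control tumours. Without control 3, its lowest array, the difference was 1.97.

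**Figure D1:**
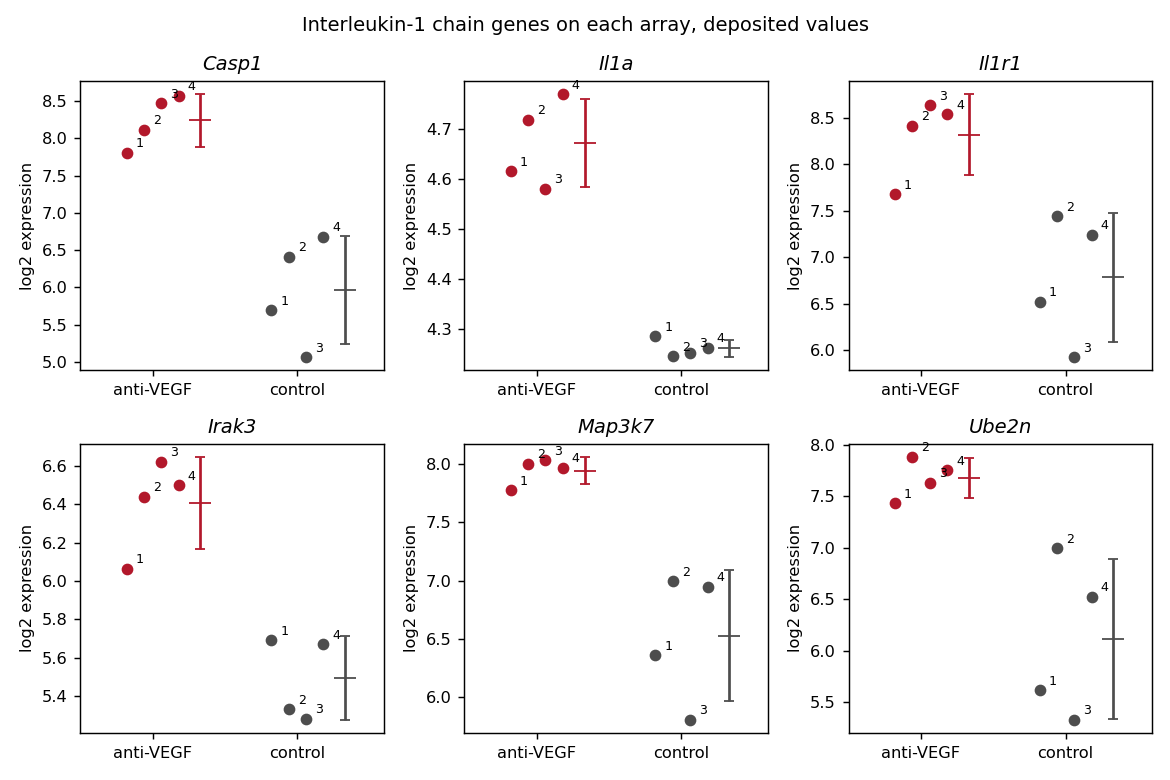
Log2 expression (vertical axis, a separate scale in each panel) of the 6 genes on each array, with anti-VEGF tumours in red and control tumours in grey; numbers are replicate numbers, bars are the mean and SD (n = 4 each). In each panel the lowest red point lies above the highest grey point, by 1.12 for *Casp1* and by 0.24 for *Il1r1*, and the 4 control values of *Il1a* lie within 4.25 to 4.29.

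*Il1a*, the gene of IL-1α and the only ligand among the 6, was a dim gene with a small but even difference on the deposited scale. It had 4.62, 4.72, 4.58 and 4.77 on anti-VEGF arrays 1 to 4, against 4.29, 4.25, 4.25 and 4.26 on control arrays 1 to 4. The control values were almost level and the anti-VEGF values all lay above them, the nearest by 0.29. The mean was 4.67 ± 0.09 in treated and 4.26 ± 0.02 in control tumours (SD, n = 4 each), a difference of 0.41 or 1.33-fold. Genes of this level were mostly lower on the anti-VEGF arrays, with a median difference of -0.58 and quartiles of -0.76 and -0.38, so that *Il1a* stood 0.99 above its neighbours and 3 of 200 had a larger difference. Quantile normalisation brought the value of *Il1a* itself to 1.03, with groups that did not overlap. Its control values were then no longer level, at 3.515 to 4.118 with an SD of 0.28. By rank it stood at percentile 47.8 to 54.1 on the anti-VEGF arrays and 21.4 to 34.5 on the control arrays. On the deposited scale *Il1a*, unlike the other 5 genes, was not lowest on anti-VEGF 1 or on control 3. After quantile normalisation it was lowest on these arrays within each group, at 4.683 and 3.515.

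*Il1r1* encodes the signalling receptor for IL-1α and IL-1β. Its log2 expression was 7.68, 8.42, 8.64 and 8.54 on anti-VEGF arrays 1 to 4, and 6.52, 7.44, 5.93 and 7.25 on control arrays 1 to 4. Anti-VEGF 1 and control 2 came within 0.24 of each other. The difference was 1.53, from means of 8.32 ± 0.44 and 6.79 ± 0.69 in anti-VEGF and control tumours (SD, n = 4 each). This lay 0.50 above the median of genes of its level (1.03), and 34 of the 200 had a larger difference. After quantile normalisation the groups overlapped, with 7.31 on anti-VEGF 1 and 7.66 on control 2, and the difference was 0.73. The distance to its neighbours was 0.31 without control 1.

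*Irak3*, the gene of the inhibitory kinase-like protein IRAK-M, had 6.06, 6.44, 6.62 and 6.50 on anti-VEGF arrays 1 to 4 and 5.69, 5.33, 5.28 and 5.67 on control arrays 1 to 4. The groups were 0.37 apart at their nearest. Means were 6.41 ± 0.24 with the antibody and 5.49 ± 0.22 without it (SD, n = 4 each), a difference of 0.91 or 1.88-fold, beside a median of 0.38 among genes of its level. Of the 200, 36 had a larger difference. After quantile normalisation the value was 0.72 and the groups were 0.25 apart. Thus the brake and the receptor stood about equally far above their neighbours, at 0.53 and 0.50.

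The 2 genes of the TAK1 step behaved alike on the arrays. *Map3k7*, which encodes TAK1, had 7.78, 8.005, 8.03 and 7.97 on anti-VEGF arrays 1 to 4, and 6.36, 6.997, 5.80 and 6.95 on control arrays 1 to 4. *Ube2n*, which encodes UBC13, had 7.43, 7.89, 7.63 and 7.76 on anti-VEGF arrays 1 to 4, and 5.61, 6.996, 5.33 and 6.52 on control arrays 1 to 4. In both genes, as in *Il1r1*, control 3 was lowest, control 2 highest and anti-VEGF 1 the lowest treated tumour on the deposited scale. The SD was 0.12 and 0.19 among anti-VEGF tumours and 0.56 and 0.78 among control tumours for *Map3k7* and *Ube2n*. The difference was 1.42 for *Map3k7*, with a median of 0.78 among genes of its level, and 1.56 for *Ube2n*, with a median of 0.74. Of 200 neighbours, 24 exceeded *Map3k7* and 16 exceeded *Ube2n*. After quantile normalisation *Map3k7* had 0.69 with groups 0.20 apart, and *Ube2n* had 1.09 with groups that overlapped, since control 2 had 7.20 and anti-VEGF 1 had 7.09.

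**Figure D2:**
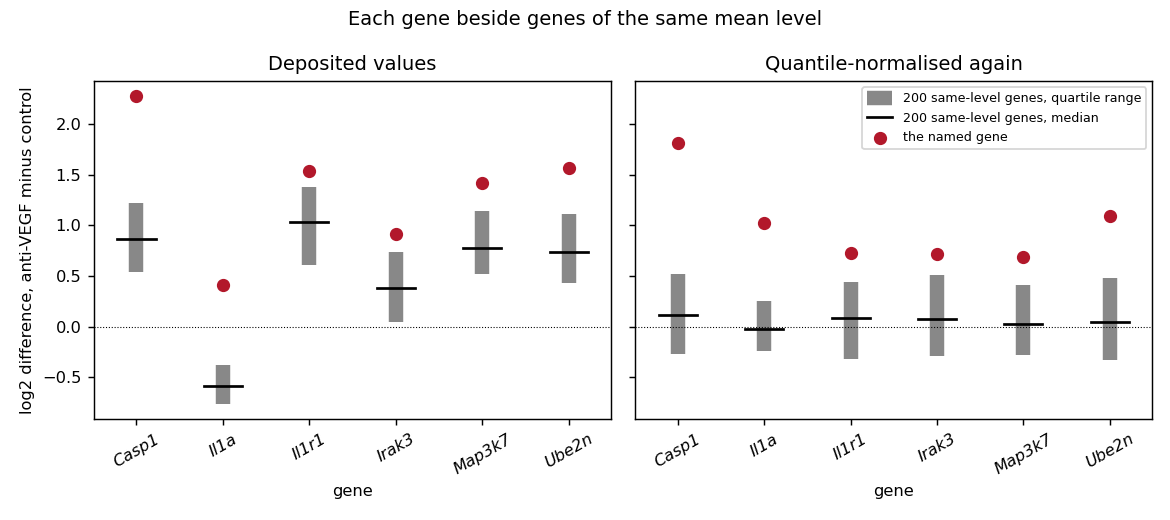
Difference in log2 expression, anti-VEGF minus control (vertical axis), of each of the 6 genes (red points) beside the 200 genes nearest in mean level (grey bar from the lower to the upper quartile, black line at the median), for deposited values on the left and after quantile normalisation on the right. On the left the median of the neighbours runs from -0.58 for *Il1a* to 1.03 for *Il1r1*, on the right it lies between -0.03 and 0.11, and the red points lie above the upper quartile in each case.

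In all 6 genes the anti-VEGF and control values were apart on the deposited scale, where 19.8% of all genes tested were higher without overlap, and in 4 of the 6 after quantile normalisation, where 13.5% of all genes were. Since the genes were picked for this difference, nothing is read from these counts. Across the alternatives tried no difference of the 6 changed sign. The order of the differences was not the same on both scales. On the deposited scale *Il1a* had the smallest of the 6 (0.41) and after quantile normalisation its value (1.03) was above those of *Il1r1*, *Irak3* and *Map3k7* (0.69 to 0.73). These 3 genes differed from each other by less than the SD between tumours.

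The sequence before the transcript start was read for each member from RefSeq (GRCm38.p6), where all 6 were found, *Il1r1* and *Irak3* with 2 start sites each. The 250 bases before each start were searched on both strands for the κB consensus bound by NF-κB, for ACGTG (the core of the hypoxia response element), for TGANTCA (the AP-1 motif) and for TATAAA. The promoters of *Casp1* and *Il1a* are shown because these genes stood farthest above genes of their level, and that of *Map3k7* because it holds a κB match. Capitals mark the matches.
Casp1 (chr9:5298267-5298516, plus strand): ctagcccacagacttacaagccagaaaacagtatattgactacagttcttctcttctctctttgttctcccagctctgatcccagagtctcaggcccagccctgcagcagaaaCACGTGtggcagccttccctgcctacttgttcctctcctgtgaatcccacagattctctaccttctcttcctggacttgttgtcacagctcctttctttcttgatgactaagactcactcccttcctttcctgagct
Il1a (chr2:129309973-129310222, minus strand): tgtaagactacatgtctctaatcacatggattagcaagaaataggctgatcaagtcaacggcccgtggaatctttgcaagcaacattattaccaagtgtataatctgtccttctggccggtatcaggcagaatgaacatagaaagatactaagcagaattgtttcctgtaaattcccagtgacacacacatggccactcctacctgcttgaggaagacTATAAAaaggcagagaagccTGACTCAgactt
Map3k7 (chr4:31963857-31964106, plus strand): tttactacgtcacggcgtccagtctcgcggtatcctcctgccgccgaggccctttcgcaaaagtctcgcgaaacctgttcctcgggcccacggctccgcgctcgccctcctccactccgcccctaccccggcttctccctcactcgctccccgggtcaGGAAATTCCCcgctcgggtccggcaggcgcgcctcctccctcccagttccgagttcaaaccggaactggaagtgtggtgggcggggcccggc
In *Casp1* the capitals are a palindrome that holds ACGTG on each strand, so its 2 matches overlap and are a single place. The *Il1a* promoter holds TATAAA at position -32 from the start and TGANTCA at -12. The capitals of *Map3k7*, from position -92, match the κB consensus on the minus strand.

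Over 32851 promoters of this length, 7.25% held the κB consensus, 16.6% ACGTG, 6.75% TGANTCA and 12.4% TATAAA. Of the other members, *Il1r1* held ACGTG before 1 start and a κB match before the other, and *Irak3* and *Ube2n* held none of the 4 motifs in these windows. The promoters also differed in composition. *Casp1* and *Il1a* had 1 and 3 CpG dinucleotides and a G+C content of 49.2% and 42.4%, whereas *Map3k7* and *Ube2n* had 28 and 32 CpG and 68.0% and 74.8% G+C. The median of all promoters was 6 CpG and 52.4% G+C. The matches are letters in a window and do not show binding.

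To place the 6 genes in their pathway, 153 genes of IL-1 signalling were written down by role, of which 74 were among the genes tested and 68 were not members. Of these 68, 32 passed the test as higher in anti-VEGF tumours and 6 as lower (limma, Benjamini-Hochberg over all genes, threshold 0.05), which is 47.1% and 8.82%. Over all genes 19.1% rose and 46.6% fell. The median difference was 0.50 in the list and -0.44 over all genes. Many of the list were bright genes, which as a whole were higher on these arrays: 41 of the 68 were among the 3889 brightest, and of these 41, 28 rose and none fell, beside 51.3% that rose and 4.55% that fell of the 3889. The median difference was 0.85 for the 41 and 0.60 for the 3889. All 4 list genes among the 3889 dimmest genes fell, as did 90.3% of those dimmest genes. After quantile normalisation 12 of the 68 rose and 2 fell, where 7.47% of all genes rose and 4.45% fell, and the list's median was 0.20. Of the 12, 10 had also risen on the deposited scale. Of the 32 that rose on the deposited scale, 7 had a difference below 0 after quantile normalisation.

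**Figure D3:**
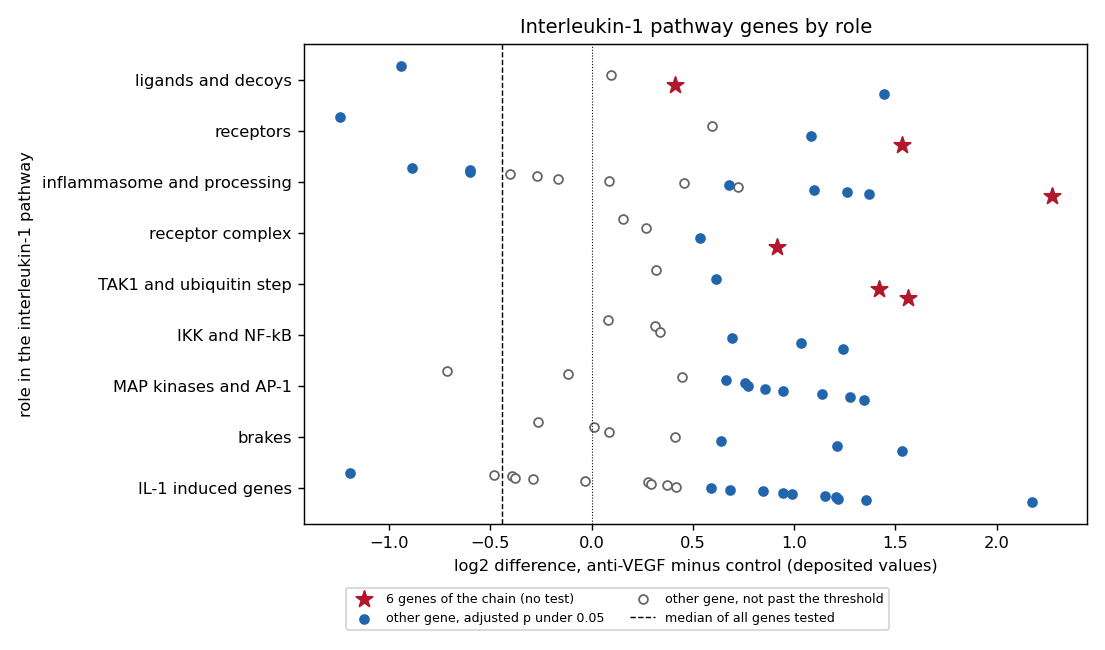
Difference in log2 expression on the deposited scale, anti-VEGF minus control (horizontal axis), of 74 measured IL-1 pathway genes by role; red stars are the 6 genes of the chain, filled blue circles are other genes at an adjusted p under 0.05 from limma and open circles other genes above it. The dashed line is the median of all genes (-0.44), and 32 blue circles lie to the right of 0 and 6 to the left.

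Few ligands and receptors were measured beside *Il1a* and *Il1r1*. *Il1b* and *Il18*, whose products caspase-1 cuts, and *Il1rn* and *Il1rap* were not among the genes tested. Among 3 other ligands and decoys, *Il1r2*, a decoy receptor that binds IL-1 without signalling, rose by 1.44 (standard error 0.49, limma adjusted p = 0.0242), and *Il1f10*, the gene of the IL-1 family member IL-38, fell by 0.94 (0.00654). Of 3 other receptors, *Il1rl2*, which encodes the receptor for IL-36, rose by 1.08 (0.00487) and *Il1rapl2*, a receptor-like gene of the nervous system, fell by 1.24 (0.00151). None of the 4 passed after quantile normalisation, where *Il1r2* had 0.70, *Il1rl2* 0.97, *Il1f10* -0.28 and *Il1rapl2* -0.08. The call of *Il1r2* also ended without anti-VEGF 3 or 4 or control 1 (highest limma adjusted p 0.0593), and its value was 0.88 without control 3. *Il1f10* and *Il1rapl2* were among the 3889 dimmest genes, of which 90.3% fell on the deposited scale.

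Beside *Casp1*, 13 genes of inflammasomes and precursor processing were measured, of which 4 rose, 3 fell and 6 did not pass. The shares that rose and fell were 30.8% and 23.1%, beside 19.1% and 46.6% of all genes. The sensor genes *Naip2* and *Naip5*, whose products detect bacterial proteins together with NLRC4, rose by 1.37 (standard error 0.21, limma adjusted p = 0.00118) and 0.68 (0.00425). Both were also higher after quantile normalisation, at 1.29 and 0.75. *Nlrp1a*, another sensor gene, fell by 0.89 (0.0059), but had -0.29 (adjusted p = 0.501) once the arrays were quantile-normalised. *Nlrc4* itself fell by 0.60 on the deposited scale (limma adjusted p = 0.0443) and had 0.17 after quantile normalisation. It was among the 3889 dimmest genes, of which 90.3% fell on the deposited scale. After quantile normalisation 3 of the 13 genes rose and none fell, where 7.47% of all genes rose and 4.45% fell. Beside *Naip2* and *Naip5* the gene that rose was *Mefv*, with 0.48 (limma adjusted p = 0.0414). On the deposited scale *Mefv* had -0.17 and did not pass. The sensor gene *Nlrp3* and the adaptor gene *Pycard*, which couple to caspase-1, did not pass, with 0.09 and -0.27. *Nlrc4*, *Mefv*, *Nlrp3* and *Pycard* were named after their values were seen.

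At the receptor complex and the TAK1 step only 5 genes other than *Irak3*, *Map3k7* and *Ube2n* were measured. *Irak1*, *Irak4* and *Traf6* were not among the genes tested. *Myd88*, the adaptor of the IL-1 receptor, rose by 0.53 (limma adjusted p = 0.0245), but it had -0.20 after quantile normalisation. Without anti-VEGF 2, 3 or 4 its adjusted p from limma was 0.0624 to 0.0692. *Traf2*, a ubiquitin ligase of TNF receptors, rose by 0.62 (0.0169), and had 0.15 after quantile normalisation and an adjusted p of 0.0522 without anti-VEGF 3. *Tollip*, whose product dampens IRAK signalling, did not pass on the deposited scale (0.27) and fell by 0.53 after quantile normalisation (limma adjusted p = 0.0343). It was named after its values were seen, as was *Mapk13*, the other gene that fell on that scale (-1.03, adjusted p = 0.0470 from limma).

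Downstream, 3 of 6 genes of IKK and NF-κB (50%) and 8 of 11 MAP kinase and AP-1 genes (72.7%) rose on the deposited scale and none fell. Of the 3889 brightest genes 51.3% rose on that scale, and of all genes 19.1%. After quantile normalisation none of the 6 rose or fell, and of the 11, 2 rose and 1 fell, where 7.47% of all genes rose and 4.45% fell. Of the 8 MAP kinase and AP-1 genes that rose on the deposited scale, *Jun*, *Mapk12*, *Fosl1* and *Mapk11*, named after their values were seen, then had differences of -0.05, -0.0055, -0.16 and -0.26. The inhibitor gene *Nfkbia* rose by 1.24 (limma adjusted p = 0.018), *Rela*, the p65 subunit, by 1.03 (0.0109) and *Rel* by 0.70 (0.0308). After quantile normalisation none of these 3 passed: *Rel* had 0.84 (limma adjusted p = 0.106), *Nfkbia* 0.42 (0.289) and *Rela* 0.23 (0.380). The value of *Nfkbia* was 0.77 without control 3, and *Rel* did not pass without anti-VEGF 2, 3 or 4 (highest limma adjusted p 0.0935). *Mapk9*, the JNK2 gene, rose by 1.35 (0.00107) and *Map2k6*, whose product activates p38, by 1.14 (0.00169), and both were still higher after quantile normalisation (0.82 and 0.67). *Mapkapk2*, a kinase downstream of p38, rose by 1.27 (0.00505), with 0.41 after quantile normalisation (0.0596).

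Of 7 genes that restrain the pathway, 3 rose (42.9%) and none fell, where 19.1% of all genes and 51.3% of the 3889 brightest rose. *Dusp1*, a phosphatase of MAP kinases, rose by 1.53 (standard error 0.29, limma adjusted p = 0.00202), *Otulin*, which removes linear ubiquitin chains, by 1.21 (0.00132) and *Usp18*, a protease best known in interferon signalling, by 0.64 (0.0134). *Dusp1* and *Usp18* were also higher after quantile normalisation (0.81 and 0.87), and *Otulin* had 0.73 (0.0821). The call of *Usp18* ended without anti-VEGF 3 or 4 (0.0521 and 0.0533 from limma). Of 20 genes that IL-1 is known to induce, 10 rose (50%), 1 fell and 9 did not pass. Of the 3889 brightest genes 51.3% rose, and of all genes 19.1%. After quantile normalisation 5 of the 20 rose and none fell, where 7.47% of all genes rose. The growth factor gene *Ereg* rose by 1.36 (standard error 0.20, limma adjusted p = 0.00105), the endothelial adhesion gene *Sele* by 1.21 (0.00143) and *Ptgs2*, which encodes COX-2, by 1.22 (0.00207). All 3 were also higher after quantile normalisation, at 0.97, 1.22 and 1.21. The gene that fell was *Ccl20*, by 1.19 (limma adjusted p = 0.00255), with -0.44 after quantile normalisation. *Ccl20* was among the 3889 dimmest genes, of which 90.3% fell on the deposited scale. *Il6*, *Nos2*, *Cxcl1*, *Csf2* and *Csf3* did not pass, with -0.03, -0.29, -0.38, -0.39 and -0.48 on the deposited scale. *Ccl20* and these genes were named after their values were seen.

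The tumours hold several cell types, and a change in the number of cells of a type cannot be told apart from a change in RNA per cell. Over all genes 19.1% rose and 46.6% fell, and of the 3889 brightest 51.3% rose. Of 13 measured macrophage and monocyte markers 8 rose and none fell, and their mean log2 level was 7.43 to 7.93 on the anti-VEGF arrays and 6.33 to 7.22 on the control arrays. After quantile normalisation it was 7.18 to 7.73 on the anti-VEGF arrays and 7.14 to 7.32 on the control arrays. Of 12 granulocyte markers 6 rose and 2 fell, with a mean level of 5.28 to 5.96 in anti-VEGF and 4.96 to 5.25 in control tumours, and after quantile normalisation of 5.35 to 5.87 in anti-VEGF and 4.83 to 5.21 in control tumours. The defining markers *Cd68* and *Csf1r* had 7.98 and 7.97 in anti-VEGF tumours and 6.70 and 7.15 in control tumours (*Adgre1* was not among the genes tested), and *S100a8* and *S100a9* had 6.59 and 6.93 in anti-VEGF tumours and 4.85 and 5.49 in control tumours. Some markers went the other way: *Ccr2* and *Cx3cr1* of the macrophage list had differences of -0.43 and -0.45, which did not pass, *Elane* and *Camp* of the granulocyte list fell by 0.87 and 1.02, and *Ly6g* had 0.29, which did not pass. After quantile normalisation the difference of *Csf1r* was -0.04 and that of *Cd68* 0.56. These markers other than *Cd68* and *Csf1r* were named after their values were seen. On the deposited scale *Casp1*, *Il1r1*, *Irak3*, *Map3k7* and *Ube2n* were lowest on anti-VEGF 1 within the treated group and on control 3 within the control group. So were the macrophage list, the endothelial list (5.16 and 5.11) and *Lum*, the single fibroblast marker measured (4.82 and 4.16). The granulocyte list and the list of HM-1 epithelial markers were also lowest on control 3 (4.96 and 7.46), but within the treated group on anti-VEGF 2 (5.28 and 8.18). After quantile normalisation the lowest control was control 3 for *Casp1* and *Il1a*, control 1 for *Il1r1*, *Map3k7* and *Ube2n*, and control 2 for *Irak3*. The part of these cells in the values of the 6 genes was not tested.

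Digestive enzyme genes of the pancreas moved the other way on the same arrays. All 17 measured acinar markers fell, where 46.6% of all genes did. Their mean level was 4.34 to 9.69 on the anti-VEGF arrays, highest on anti-VEGF 1, and 9.53 to 11.11 on the control arrays. The cells had been placed under the skin, and markers of skin and of skeletal muscle had a mean level of 4.44 to 4.68 and 4.74 to 4.98 in anti-VEGF tumours and 4.71 to 5.16 and 5.08 to 5.38 in control tumours. Of 7 skin and 8 muscle markers 2 and 4 fell, where 46.6% of all genes did. After quantile normalisation the skin list was 4.713 to 4.768 in anti-VEGF and 4.555 to 4.831 in control tumours. The muscle list was then 4.932 to 4.994 in anti-VEGF and 5.021 to 5.264 in control tumours. Without anti-VEGF 1, the treated tumour with the most acinar signal, the differences of the 6 genes were 2.42 (*Casp1*), 0.43 (*Il1a*), 1.75 (*Il1r1*), 1.03 (*Irak3*), 1.48 (*Map3k7*) and 1.64 (*Ube2n*), each larger than with it. Control 3 had the least acinar signal of the controls (9.53), and *Casp1*, *Il1r1*, *Irak3*, *Map3k7* and *Ube2n* were lowest there too on the deposited scale. Without control 3 the differences were 1.97 (*Casp1*), 0.41 (*Il1a*), 1.25 (*Il1r1*), 0.84 (*Irak3*), 1.18 (*Map3k7*) and 1.30 (*Ube2n*), smaller than with it for each gene but *Il1a*, whose value was the same after rounding. The part of pancreatic RNA in the values of the 6 genes was not tested.

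**Figure D4:**
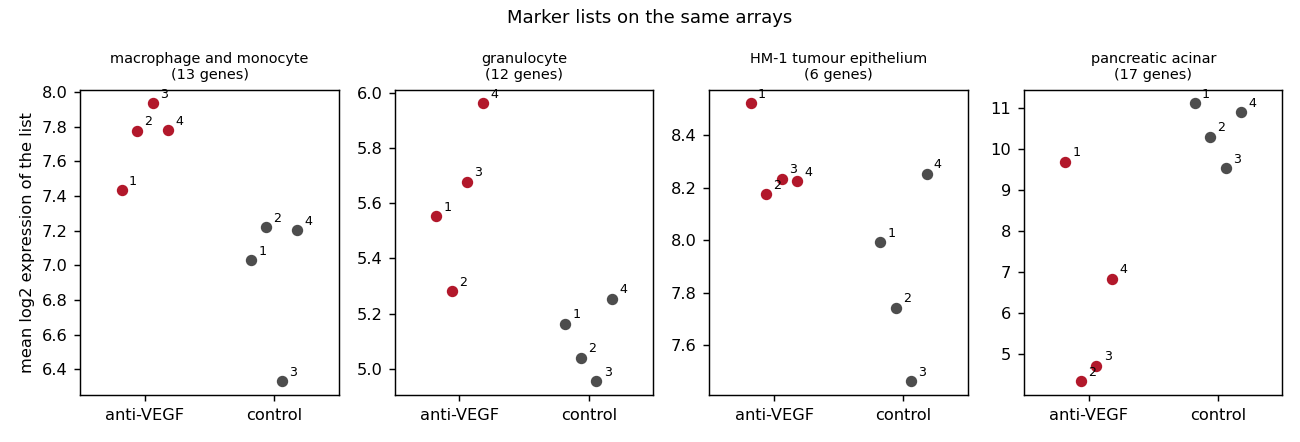
Mean log2 expression (vertical axis, a separate scale in each panel) of 4 lists of cell type markers on each array, with anti-VEGF tumours in red and control tumours in grey and replicate numbers beside the points. The macrophage list was 7.43 to 7.93 in anti-VEGF and 6.33 to 7.22 in control tumours, and the acinar list was 9.69 on anti-VEGF 1, against 4.34 to 6.84 on the other anti-VEGF arrays.

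Genes whose pattern was most like each member were sought by the Pearson correlation of deviations from the group means over the 8 arrays, which leaves the group difference out. For *Casp1* these were *M6pr* (0.988), a mannose-6-phosphate receptor, and *Laptm4b* (0.987), a lysosomal membrane gene. For *Il1r1* they were *Ss18* (0.994), a chromatin remodelling subunit, and *Fcgr3* (0.993), an Fc receptor of myeloid and natural killer cells. *Map3k7* was followed by *Ids* and *Baiap2l1* (0.998 and 0.997), and *Ube2n* by *Sarnp* and *Cacybp* (0.998 and 0.990). *Irak3* was closest to *Dym* and *Fabp7* (0.974 and 0.971). For *Il1a* the highest values were lower, 0.877 for *Cav3* and 0.849 for *Emcn*. The 8 arrays share the difference in spread noted above, and after quantile normalisation the same pairs had 0.554 to 0.996, with *Laptm4b*, *Sarnp* and *Cacybp* at 0.987 or more.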

How the data were processed

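Total RNA from 8 HM-1 tumours had been hybridised to Affymetrix mouse transcriptome arrays. The authors normalised the arrays by RMA and deposited a log2 value for 13266 probe sets, and how these were chosen is not stated in the sources used here. In GEO's platform annotation 11743 probe sets carry a single gene symbol, 800 carry several and 723 carry none. Those with several or none were left out, and a gene with several probe sets was represented by the brightest on average, giving 11667 genes. limma 3.58.1 (lmFit, eBayes) in R 4.3.3 was fitted over all genes with treatment as the only term, and p-values were adjusted by Benjamini-Hochberg, with a threshold of 0.05. The lists and the 6 members were chosen with earlier results of these data known, and the members were given no test. Named genes were the members, up to 3 genes of smallest p per role among those that passed, and the 2 genes most like each member. Same-level genes were the 200 nearest in mean log2 level. Arrays give no read depth, and 4 arrays per group limit the precision. The labels number the tumours but do not say whether each came from its own mouse, so p-values measure only the spread between these samples. Alternatives were quantile normalisation, median centring, cyclic loess, all probe sets, a replicate block, no dim genes, eBayes with trend and robust, 100 or 500 same-level genes, the level of control arrays and each array left out. Scripts were tested on simulated data. Plots were made in Python 3.11.15 (matplotlib 3.10.9).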

Additional observations from a re-analysis of the deposited data

Results flagged for a closer look

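Among the members and the named pathway genes, 54 groups of 4 tumours were looked at for a tumour far from the other 3, by the gap to its nearest neighbour as a share of the group's range. Chance gives about 1 in 20 groups, and 3 were found, none of them in a member. *Dusp1* had 7.73 on anti-VEGF 1 and 8.10 to 8.17 on the other anti-VEGF arrays (share 0.840). *Ptgs2* had 5.76 on anti-VEGF 1 and 6.42 to 6.50 on the other anti-VEGF arrays (share 0.901). *Rel* had 4.53 on control 3 and 5.32 to 5.39 on the other control arrays (share 0.918).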

How the results depend on the processing

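Of the 68 other pathway genes 32 rose and 6 fell on the deposited scale, 12 and 2 after quantile normalisation, 50 and 3 after centring each array on its median and 15 and 3 after cyclic loess. Over all genes 19.1% rose and 46.6% fell on the deposited scale, and 7.47% and 4.45% after quantile normalisation. For the other settings the share over all genes is not given here, so nothing about the pathway is read from their counts. Median centring moved the median difference over all genes from -0.44 to -0.03, and cyclic loess gave -0.02. Without the 3889 dimmest genes the list kept 64 genes, of which 32 rose and 2 fell. The 4 list genes left out had all fallen on the deposited scale. With single arrays left out 24 to 35 rose and 4 to 8 fell. The labels do not say whether replicate numbers pair the tumours. The deviations of same-numbered arrays had correlations of 0.19, 0.126, -0.0367 and 0.163, which cannot settle it with so few arrays. With the replicate number as a block 33 rose and 7 fell. Cyclic loess gave differences of 1.46 for *Casp1*, 0.97 for *Il1a*, 0.62 for *Il1r1*, 0.61 for *Irak3*, 0.57 for *Map3k7* and 0.82 for *Ube2n*. Median centring gave 0.83 for *Il1a*, 1.33 for *Irak3* and 1.84 for *Map3k7*, and quantile normalisation 1.03 for *Il1a*, 0.73 for *Il1r1* and 0.69 for *Map3k7*. With single arrays left out the differences were 1.97 to 2.51 for *Casp1*, 0.38 to 0.44 for *Il1a*, 1.25 to 1.75 for *Il1r1*, 0.84 to 1.03 for *Irak3*, 1.18 to 1.58 for *Map3k7* and 1.30 to 1.86 for *Ube2n*. Above genes of the same level they were then 1.33 to 1.61, 0.89 to 1.06, 0.31 to 0.65, 0.45 to 0.64, 0.50 to 0.71 and 0.56 to 1.10 in the same order of genes. With the level taken from the control arrays *Il1a* and *Irak3* stood 1.20 and 0.99 above genes of their level. Among the named pathway genes, 33 alternative values kept their direction without passing the threshold, none of them with the replicate block. *Myd88* had -0.20 after both quantile normalisation and cyclic loess. The cause of these shifts was not tested. With 4 arrays a group, a single array moved some calls, and no signal over background was at hand to say how near it *Il1a* lay.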
